A study of Saccharomyces cerevisiae with 24 samples.

Results

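Growth of the North American oak strain YPS128 in salt, with a library of plasmid genes, was followed by counting plasmid barcodes. The 6 YPS128 libraries of the series, of 24 in all, were taken as the members by their strain label: 3 replicates sampled before growth (generation 0) and 3 sampled after 10 generations. Cells of this diploid wild isolate carried the MoBY 2.0 library, in which each high-copy 2-micron plasmid bears 1 gene of the reference strain S288C, its native flanking sequence and a DNA barcode. Growth was in flasks of rich YPD medium with 0.7 M NaCl and with 200 mg/L of G418, the drug that selects for the plasmid. The labels give this medium for both generations, but generation 0 is the pool sampled before that growth and not a culture grown without salt. No library of the series came from a culture grown for the 10 generations without NaCl. A change over the 10 generations thus cannot be assigned to the salt rather than to growth with the plasmid. Libraries of BC187 (a vineyard isolate), NCYC3290 (from West Africa) and BY4743 (a laboratory diploid), made by the same steps, are used for comparison only. The replicates are biological replicates, and the host genome kept its own copies of each gene.

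In yeast, sodium enters the cell with potassium and is toxic in the cytosol. Cells limit it by pumping sodium out through P-type ATPases of the ENA family, by taking up potassium through the Trk1 and Trk2 transporters, which keeps the membrane potential low, and by making glycerol under control of the HOG kinase cascade to balance water loss. Calcium that rises on salt stress activates the phosphatase calcineurin, which sends the transcription factor Crz1 into the nucleus. The kinases Hal5 and Sat4 (also called Hal4) stabilise the potassium transporters, and the calmodulin-dependent kinase Cmk2 acts within the calcium pathway. The ENA genes themselves were not analysed here.

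Since each plasmid gene is cloned with its own promoter, the promoters of the 3 barcodes that rose most are shown. The windows run from 250 bases before to 50 bases after the start codon and were cut from the RefSeq S288C genome, build R64: chrX:109412-109711 on the minus strand for HAL5, chrIII:128220-128519 on the plus strand for SAT4 and chrXV:296071-296370 on the minus strand for CMK2. Capitals mark matches, on either strand, to AGGGG (the stress response element bound by Msn2 and Msn4) or to GNGGCNCA (the calcineurin-dependent response element bound by Crz1).
HAL5: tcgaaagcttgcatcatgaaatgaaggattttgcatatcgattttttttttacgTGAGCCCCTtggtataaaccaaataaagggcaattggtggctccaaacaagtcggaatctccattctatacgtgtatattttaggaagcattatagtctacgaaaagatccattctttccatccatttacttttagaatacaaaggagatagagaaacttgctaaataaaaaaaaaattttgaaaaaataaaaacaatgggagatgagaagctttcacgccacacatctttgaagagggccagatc
SAT4: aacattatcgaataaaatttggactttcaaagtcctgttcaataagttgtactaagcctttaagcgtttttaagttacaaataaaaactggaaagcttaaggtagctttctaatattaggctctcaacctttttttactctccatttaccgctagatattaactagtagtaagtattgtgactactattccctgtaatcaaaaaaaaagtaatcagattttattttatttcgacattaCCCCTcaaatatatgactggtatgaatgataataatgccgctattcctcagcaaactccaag
CMK2: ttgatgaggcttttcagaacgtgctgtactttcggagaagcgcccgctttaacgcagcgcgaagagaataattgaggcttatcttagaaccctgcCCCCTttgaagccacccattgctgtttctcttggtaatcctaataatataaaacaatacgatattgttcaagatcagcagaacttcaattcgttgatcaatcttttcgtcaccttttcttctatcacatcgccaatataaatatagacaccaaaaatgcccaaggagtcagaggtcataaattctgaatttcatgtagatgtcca
HAL5 held 1 match to each motif, which overlap, and SAT4 and CMK2 held 1 match to AGGGG each. AGGGG was present in 3 of the 12 promoters of the largest rises, in 4 of the 12 of the largest falls and in 21.6% of all 6001 promoters of this length. GNGGCNCA was found in 1 of the 12 rises, 0 of the 12 falls and 3.7% of all promoters, and ACGTCA (bound by the HOG-controlled factor Sko1) in none of these 24 windows and in 7.55% of all. Over all 170 rises with a window, the shares were 19.4% for AGGGG, 1.76% for GNGGCNCA and 6.47% for ACGTCA.

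The 3 starting pools held 8486592 to 17733360 reads and were alike, with correlations of log2 reads between 0.966 and 0.992. The generation 10 libraries were deeper, at 20420543 to 30351288 reads, but most of that depth lay in a handful of barcodes. Outside the 25 genes that passed 50000 reads in any library of the series, generation 10 held 2184045, 5010411 and 1679115 reads in replicates 1, 2 and 3, and the median barcode held 175, 591 and 126 reads, against 1605 to 3413 before growth. Normalised reads below are reads per 1000000 of this remainder, and a dominant barcode can pass 1000000 on that scale. The generation 10 replicates correlated at 0.822 to 0.879. Replicate 2 stood apart. In normalised reads its changes were smaller for most of the largest rises and falls, while 47 barcodes were far higher in it than in the other grown cultures. Without it the biological coefficient of variation of the fit fell from 0.539 to 0.343 (0.439 to 0.628 without any other library). Of the 4871 barcodes, which stand for 4817 genes, 4157 were tested.

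Over 10 generations in NaCl, 171 of the 4157 barcodes rose in YPS128 (4.11%) and 352 fell (8.47%), by edgeR's quasi-likelihood test at a Benjamini-Hochberg FDR of 0.05. The median barcode changed by -0.56 on the log2 scale, with -0.80, -0.43 and -0.85 in the 3 replicates. Among the rises, 63 passed 4-fold and 18 passed 16-fold, and the smallest called rise was 0.86. Among the falls, 217 passed 4-fold and 58 passed 16-fold. Each of the 523 calls had generation 10 libraries that lay wholly above or wholly below the 3 of generation 0. The background for such separation, calls included, was 9.67% of barcodes above and 45.1% below. A test of 3 libraries against 3 favours separated groups, so the separation adds no support to the calls. Slower growth of the carriers and fewer plasmid copies in each cell both lower a barcode, and these cannot be told apart here. The zero of the scale rested on the library size: with trimmed mean (TMM) factors the median moved to 0.058 and the counts to 433 rises and 199 falls, and with all reads in the library size the median moved to -3.64 and the counts to 16 and 3884. Without replicate 2 of generation 10 there were 375 rises and 1636 falls, which included all 171 and all 352, and without a single generation 0 library 40 to 48 rises and 2 to 15 falls.

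**Figure D1:**
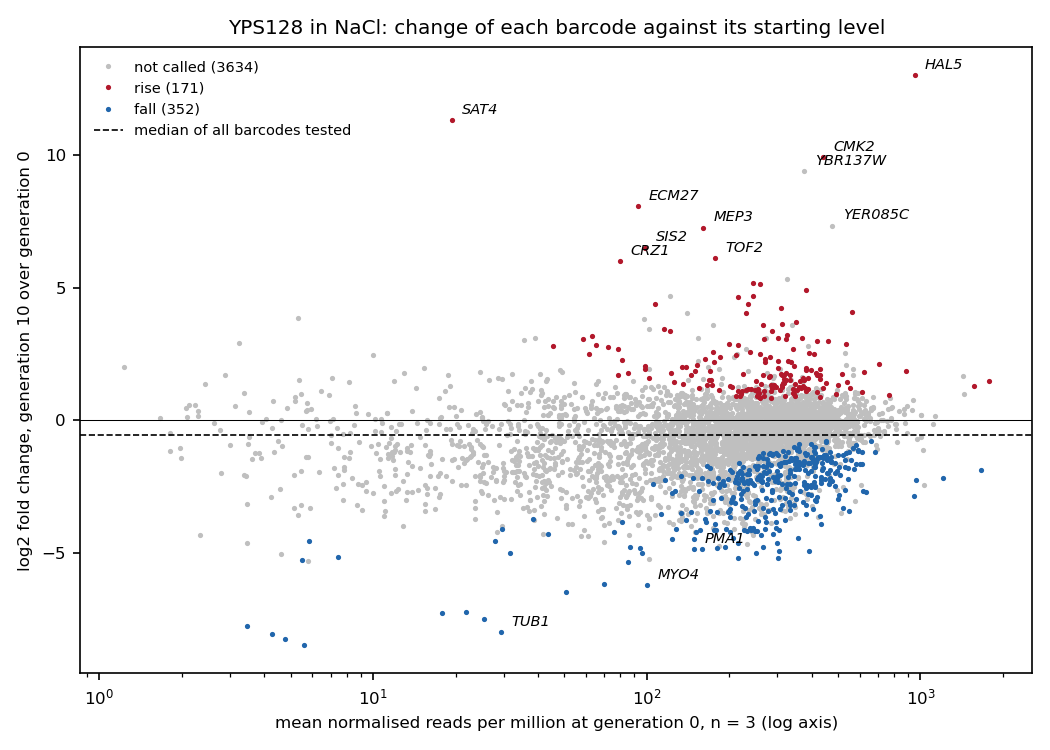
Log2 fold change of each barcode in YPS128 (generation 10 over generation 0) against its mean normalised reads per 1000000 at generation 0 (log axis, n = 3). Red points rose (171), blue points fell (352) and grey points were not called, and the dashed line is the median of all barcodes at -0.56; HAL5, SAT4 and CMK2 lie at the top, and YBR137W and YER085C are high without being called.

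A single plasmid took over the cultures. HAL5 (YJL165C, chrX:106894-109461, minus strand), a kinase gene known to raise sodium tolerance when overexpressed, held 0.0752%, 0.126% and 0.082% of reads at generation 0 and 84.7%, 72.9% and 79.5% at generation 10. Its mean share was 79.1% ± 5.93 (SD, n = 3), and its raw reads went from 6386, 14988 and 14537 to 19804397, 22129333 and 16243418. All 3 grown cultures were dominated by it, and the groups did not overlap. In normalised reads the fitted log2 change was 12.98 (SE 2.15, FDR = 0.0142), or 8107-fold. That scale leaves HAL5 and the other dominant genes out of the library size, so this fold is larger than the fold of its share. The same holds for the other log2 changes given on this scale, that of CMK2 included. The call was lost in 4 of the 6 fits that left out 1 library (each generation 0 library and generation 10 replicate 1, with FDRs of 0.054 to 0.145), while the estimate stayed between 12.79 and 13.26. In each culture the 10 largest barcodes together held 90.7%, 83.1% and 91.8% of reads, against 1.3% to 1.49% before growth. By a two-sided exact permutation test over the 20 assignments of 3 libraries against 3, the shares of HAL5 and of the 10 largest barcodes each gave p = 0.1, the smallest this design allows.

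SAT4 (YCR008W, chrIII:128470-130281, plus strand), the paralogous kinase that also acts on potassium uptake, started from one of the rarest barcodes among the strong risers. Normalised reads were 18.8, 18.3 and 21.1 at generation 0 and 21996, 34330.1 and 91274 at generation 10. The grown cultures differed among themselves by several fold, and each lay far above the starting pool. The log2 change was 11.31 (SE 0.90, FDR = 0.000859), and the share of all reads reached 0.206%, 0.567% and 0.751%. SIS2 (YKR072C, also known as HAL3), the inhibitory subunit of the phosphatase Ppz1, went from 96.3, 110.0 and 89.4 to 11550.1, 4342 and 10908, a log2 change of 6.50 (SE 0.52, FDR = 0.000859). PPZ1 itself, whose product limits salt tolerance, fell from 157, 153 and 145 to 2.29, 19.4 and 2.38 (log2 change -4.19, FDR = 0.0322). The inhibitor was higher and its target lower than at the start in all 3 grown cultures. Of all tested barcodes, 9.67% lay wholly above and 45.1% wholly below generation 0. The call of PPZ1 was lost without any 1 generation 0 library, and a link between the 2 changes was not tested.

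Of 20 tested barcodes for sodium and potassium homeostasis, 4 rose (HAL5, SAT4, SIS2 and QDR2) and 3 fell (PPZ1, PMA1 and NPR1), against 4.11% and 8.47% of all barcodes. The study named HAL5, SAT4 and QDR2 as beneficial on these same libraries, so the count of rises is not independent of it. Leaving out any 1 generation 0 library gave 2 rises and 0 falls, leaving out generation 10 replicate 2 gave 4 and 11, and all reads in the library size gave 3 and 15. The list's median lay 0.70 below that of all barcodes. QDR2, a plasma membrane transporter of drugs and cations, rose by 1.12 (SE 0.23, FDR = 0.023), which became -2.04 with all reads in the library size. Its neighbour and relative QDR1 was not called, with 156, 102 and 104 normalised reads at generation 0 and 51.7, 64.1 and 1.19 at generation 10 (-1.62, SE 1.07, FDR = 0.299). PMA1, the proton pump that builds the membrane potential, dropped from 161, 142 and 145 to 0.458, 12.4 and 1.79. That is -4.85 (SE 1.11, FDR = 0.0315), a loss that was smaller in replicate 2 than in the others. NPR1, a kinase of the same family as HAL5 and SAT4 that controls nutrient permeases, fell by 2.25 on the log2 scale. PHO89, TOK1 and TRK2 had no barcode in the table used here, and TRK1, PMP3, VHS3 and PTK1 did not pass the filter on low reads.

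Genes of calcium signalling were also among the largest rises. CMK2 (YOL016C, chrXV:294777-296120, minus strand), the calmodulin-dependent kinase, had 367, 488 and 469.7 normalised reads before growth and 489167, 259515 and 521137 after it. It held 4.57%, 4.28% and 4.29% of all reads, and its log2 change was 9.90 (SE 0.99, FDR = 0.00191). ECM27 (YJR106W, chrX:624838-627015), a gene of calcium homeostasis related to sodium and calcium exchangers, rose from 98.1, 85.1 and 95.1 to 29391, 13021 and 32861 (8.08, SE 0.60). CRZ1 (YNL027W, chrXIV:579580-581616), the calcineurin-activated transcription factor, rose from 103, 63.2 and 74.2 to 5384, 4243 and 5845 (6.01, SE 0.37). Both had an FDR of 0.000859, and no fit without a library ended either call. Of the 14 tested barcodes of calcium signalling, these 3 rose and 3 fell (4.11% and 8.47% over all barcodes), and without a generation 0 library there were 3 rises and 0 to 1 falls. The study named CMK2 and CRZ1 as beneficial on libraries of this series, so the count of rises is not independent of it. The ones that fell were PMC1 (-1.89), the vacuolar calcium pump, PMR1 (-3.13), the Golgi calcium pump, and CMP2 (-3.18), a catalytic subunit of calcineurin. PMC1 was even across the grown cultures, with 110.3, 106 and 107 normalised reads from 364, 435 and 397.

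**Figure D2:**
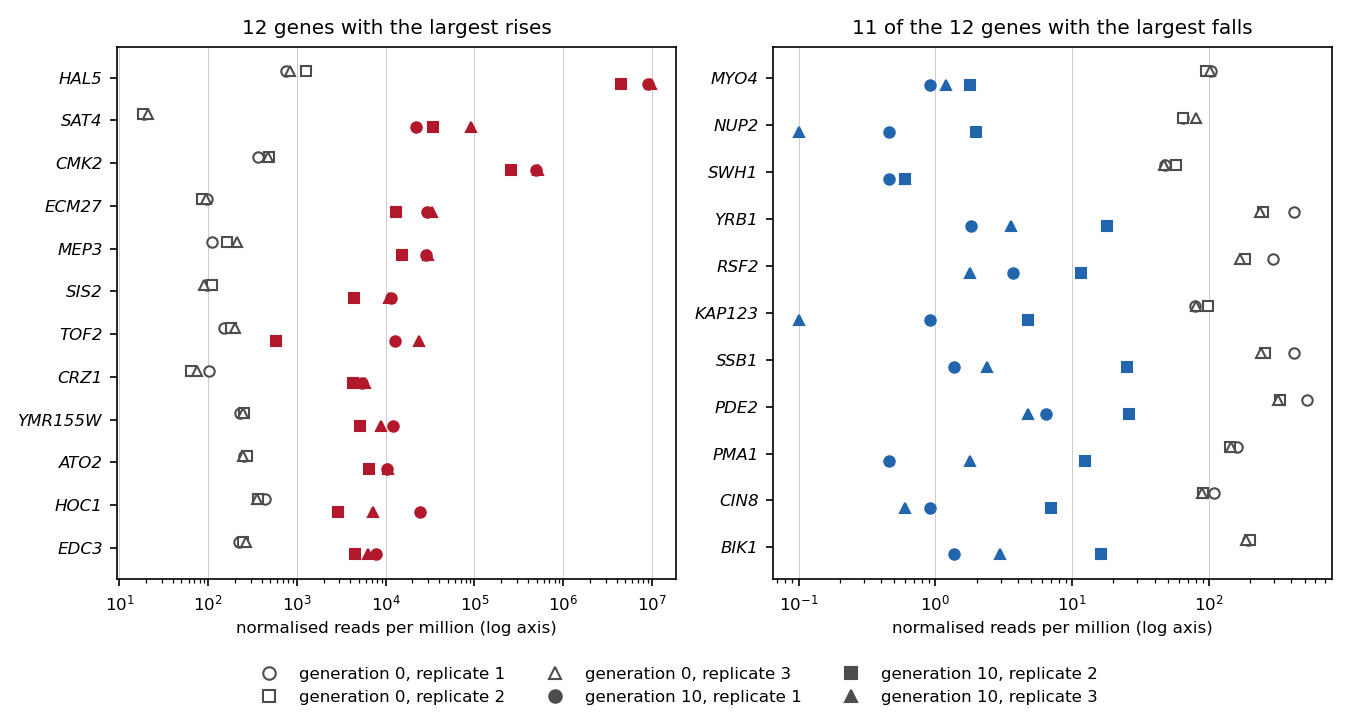
Normalised reads per 1000000 (log axis) of the 12 largest rises (left) and 11 of the 12 largest falls (right) in each YPS128 library; open symbols are generation 0 and filled symbols generation 10, with a circle, square and triangle for replicates 1, 2 and 3. No filled symbol reaches the open symbols of its gene, replicate 2 lies nearer the start for most genes, and libraries at 0 reads are drawn at 0.1.

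The remaining genes of the 12 largest rises have other roles. MEP3, an ammonium permease, climbed from 109.5, 161 and 212 to 28477, 15403 and 30179 (7.26, SE 0.58, FDR = 0.000859). ATO2, a putative ammonia exporter, climbed from 255, 276 and 246 to 10373, 6435 and 10584 (5.14, SE 0.37, FDR = 0.000859). Both membrane proteins handle ammonium, and both were high in all 3 cultures. YMR155W, an uncharacterised gene, reached 12181, 5108 and 8810.0 from 228, 255 and 248 (5.16, SE 0.44). EDC3, an enhancer of mRNA decapping, reached 7864, 4472 and 6347 from 221, 247 and 268 (4.67, SE 0.36). TOF2, needed for silencing and segregation of the ribosomal DNA, was uneven, at 12606, 575 and 23922 from 150.1, 180.3 and 202 (6.12, SE 1.21, FDR = 0.0212). HOC1, a mannosyltransferase of the Golgi, was uneven too, at 24237, 2873 and 7098 from 432, 359.7 and 351 (4.90, SE 0.81, FDR = 0.0141). TOF2 lost its call without any generation 0 library or generation 10 replicate 1, and HOC1 without any generation 0 library. Replicate 2 held the lowest normalised generation 10 level of each of the 12 except SAT4, on a scale that divides by its larger remainder of reads. As a share of all reads, replicate 2 was highest for CRZ1 (0.0503%, 0.0700% and 0.0481%), ATO2 and EDC3. By that measure it lay between the others for MEP3, YMR155W and SAT4. It stayed lowest for HAL5, CMK2, ECM27, SIS2, TOF2 and HOC1. GLC7, SET3 and DED1, named here after their values were seen, followed with log2 changes of 4.64, 4.39 and 4.38; they encode the catalytic subunit of protein phosphatase 1, the defining subunit of a histone deacetylase complex and an RNA helicase of translation initiation.

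DGK1, GCD10 and CKA1, which the study singled out on these libraries and which are thus no independent choice, also rose. DGK1, a diacylglycerol kinase, rose from 535, 509 and 554 to 4646, 2501 and 4729 (2.89, SE 0.34, FDR = 0.00359). GCD10, a subunit of a tRNA methyltransferase, rose from 50.9, 65.4 and 58.7 to 431, 256 and 789 (3.08, SE 0.44, FDR = 0.0087). CKA1, a catalytic subunit of casein kinase 2, rose from 273, 301 and 287 to 939.5, 509 and 691 (1.31, SE 0.27, FDR = 0.0226). Of the 4 tested casein kinase 2 barcodes edgeR called this 1 (4.11% over all barcodes). The rises numbered 2 by DESeq2 and without generation 10 replicate 2, and 0 without any 1 generation 0 library or with all reads in the library size, where 4 fell. With all reads in the library size these 3 values became -0.36, -0.23 and -1.90.

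Among 35 tested barcodes for P-bodies and stress granules, the cytoplasmic assemblies of untranslated mRNA, 10 rose and 4 fell (4.11% and 8.47% over all barcodes), and the list's median lay 0.99 above that of all barcodes. The study picked this theme on these same libraries, so the count is not independent of it. Rises covered decapping factors and their helpers (EDC3 4.67, DHH1 2.88, LSM3 2.50, LSM4 1.96, EDC1 1.35, SCD6 1.24), translation repressors and helicases (DED1 4.38, SBP1 3.59) and translation factors (TIF4632 1.48, PAB1 1.26). SBP1, which represses translation and acts on P-bodies, was even across cultures, with 261, 272 and 266 before and 3258, 2578 and 3779 after. DHH1, a helicase that activates decapping, gave 209, 188 and 201 before and 1831, 1398 and 1178 after. The falls were NPL3 (-3.91), LSM1 (-3.44), PBP1 (-3.41) and HRP1 (-1.61). LSM1 fell while its ring partners LSM3 and LSM4 rose. With all reads in the library size, DHH1 and LSM4 turned to -0.25 and -1.22, and 2 barcodes of the list rose and 29 fell. Without a generation 0 library there were 5 to 6 rises and 0 falls, and without generation 10 replicate 2 there were 14 and 12.

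Ergosterol synthesis, the sterol pathway of the plasma membrane and the study's other theme, was divided. Of 28 tested barcodes, 3 rose and 5 fell (4.11% and 8.47% over all barcodes), which became 0 to 1 rises and 0 falls without a generation 0 library and 0 rises and 25 falls with all reads in the library size. ERG5 (2.48, SE 0.32) and ERG4 (2.0, SE 0.29), which catalyse late steps, rose, from 214, 199 and 223 to 1400.2, 695 and 1445 for ERG5 and from 147, 139 and 133 to 608, 362 and 703 for ERG4. ERG20, the farnesyl pyrophosphate synthase, rose by 1.34. The thiolase ERG10 (-2.96), the squalene epoxidase ERG1 (-1.50), ERG11 (-3.33), ERG25 (-3.44) and the reductase partner NCP1 (-2.38) fell. ERG5 and ERG4 turned to -0.79 and -1.25 with all reads in the library size. In the chromatin list of 14 barcodes, the histone variant HTZ1 (2.40, SE 0.27) and the HMG-box gene NHP6A (2.40, SE 0.40) rose, while both histone H3 genes, HHT1 (-2.21) and HHT2 (-2.46), fell. Without any 1 generation 0 library this list had 1 rise and 0 falls. HTZ1 and NHP6A became -0.79 and -0.83 in that same scaling.

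The plasmids with the largest falls had few reads left in replicates 1 and 3 at generation 10. Replicate 2 kept more reads of most, as for SSB1 (3, 125 and 4 reads), PDE2 (14, 131 and 8) and YRB1 (4, 90 and 6). MYO4, a class V myosin that carries mRNA into the bud, went from 104, 95.6 and 102 normalised reads to 0.916, 1.80 and 1.19, or 2, 9 and 2 reads. With libraries under 3 reads set to 3, its fall was 60.8-fold (fitted log2 change -6.21, FDR = 0.00443), and the pooled reads gave 68.5-fold with a 95% exact counting interval of 39.99 to 129. SWH1, an oxysterol-binding protein, had 1, 3 and 1 reads left, and its pooled fall was 89.6-fold (38.3 to 276). Such intervals and floors cover counting error only, since reads of a PCR product carry no molecular identifiers. With the same floor, the nucleoporin NUP2 fell 40.6-fold, the Ran-binding protein YRB1 38.6-fold and the importin KAP123 32.3-fold. SSB1, the ribosome-bound Hsp70, fell from 417, 255 and 241 to 1.37, 24.9 and 2.38. The spindle motor CIN8 and the microtubule-binding BIK1 fell 28.4-fold and 28.1-fold. PDE2, the phosphodiesterase that removes cyclic AMP, fell from 517, 333 and 321 to 6.41, 26.1 and 4.76 (-4.91, SE 0.72, FDR = 0.00956). RSF2, a zinc-finger regulator of growth on glycerol, fell 38.03-fold. Replicate 2 held the highest level of each of these genes, for SWH1 by a margin under 1 read. Leaving out 1 library ended the call in 1 to 5 of 6 fits for each, 1 for MYO4 and PDE2 and 5 for SSB1.

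Of 19 tested barcodes for actin, myosin and tubulin, 9 fell (8.47% over all barcodes), and the list's median lay 1.08 below that of all. Without generation 0 replicate 1, 2 or 3 the falls numbered 0, 1 and 1. The alpha-tubulin TUB1 had 30.7, 30.8 and 26.7 normalised reads at the start and 0, 1 and 0 reads at the end, a pooled fall of 256-fold with a counting interval of 45.9 to 10138. The other tubulins TUB3 (-4.61) and TUB2 (-4.59), the myosins MYO2 (-4.81), MYO1 (-4.14) and MYO4, the actin-binding ABP1 (-4.85), the actin nucleator ARP2 (-2.33) and the tubulin folding factor CIN2 (-1.64) also fell. Chaperones of the cytosol gave 10 falls of 28 (0 without any 1 generation 0 library), among them SSB1 (-4.91), SSA2 (-4.45), YDJ1 (-4.11), SSE1 (-3.76), HSC82 (-3.51) and the disaggregase HSP104 (-3.32), though the list's median lay only 0.32 below that of all barcodes.

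Ribosomal proteins were the longest list. Of 118 barcodes, 35 fell (the background is 8.47%), and the median change was -2.10, or 1.55 below that of all barcodes. With TMM factors 23 fell and 4 rose, and without replicate 2 of generation 10 there were 87 falls and 3 rises. Without generation 0 replicate 1, 2 or 3 there were 0, 2 and 3 falls. RPL10 went from 862, 1046 and 928 to 133, 205 and 57.8 (-2.84), RPS19A from 415, 489.7 and 492 to 76.9, 136 and 76.2 (-2.27), and RPL34A from 485, 330.4 and 309 to 60.4, 88.2 and 57.8 (-2.44). The falls of RPL9A (-4.44) and RPP0 (-3.81) were deeper. Among 17 barcodes of the cell wall integrity pathway 7 fell (0 without any 1 generation 0 library and 12 without generation 10 replicate 2), including the GTPase RHO1 (-3.65), the sensors WSC2 (-3.30) and MID2 (-2.52), and the exchange factors ROM1 (-2.67) and TUS1 (-1.70). The phosphatase MSG5 (-1.59), which restrains the pathway's MAP kinase, fell as well. Of 14 barcodes of the Ras and protein kinase A pathway, PDE2, the kinase subunit TPK2 (-4.75) and RAS2 (-2.18) fell, members that lower and members that raise the pathway's activity. The falls of this list numbered 0 to 1 without a generation 0 library and 7 without generation 10 replicate 2.

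The median of 19 vacuolar proton ATPase barcodes lay 1.27 below that of all, and 3 fell (8.47% over all barcodes), VMA2 (-4.21), VMA16 (-2.42) and the assembly factor VPH2 (-1.83). The falls numbered 8 by DESeq2, 10 with voom, 11 in the joint fit, 14 without generation 10 replicate 2 and 0 without any 1 generation 0 library. The proteasome list had 5 falls and 1 rise among 27 (8.47% and 4.11% over all barcodes), the rise being PUP2 (1.37, and -1.66 with all reads in the library size). Its share of rises, 3.7%, was near that of all barcodes, and its median lay 0.22 below theirs. No call was left without a generation 0 library, and without generation 10 replicate 2 there were 2 rises and 11 falls. The maltose permease MAL31, among 7 barcodes for maltose and hexose uptake, had 4.28, 5.85 and 6.66 normalised reads before growth and no read in any grown culture, a fall of at least 4.47-fold that a low start limits.

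**Figure D3:**
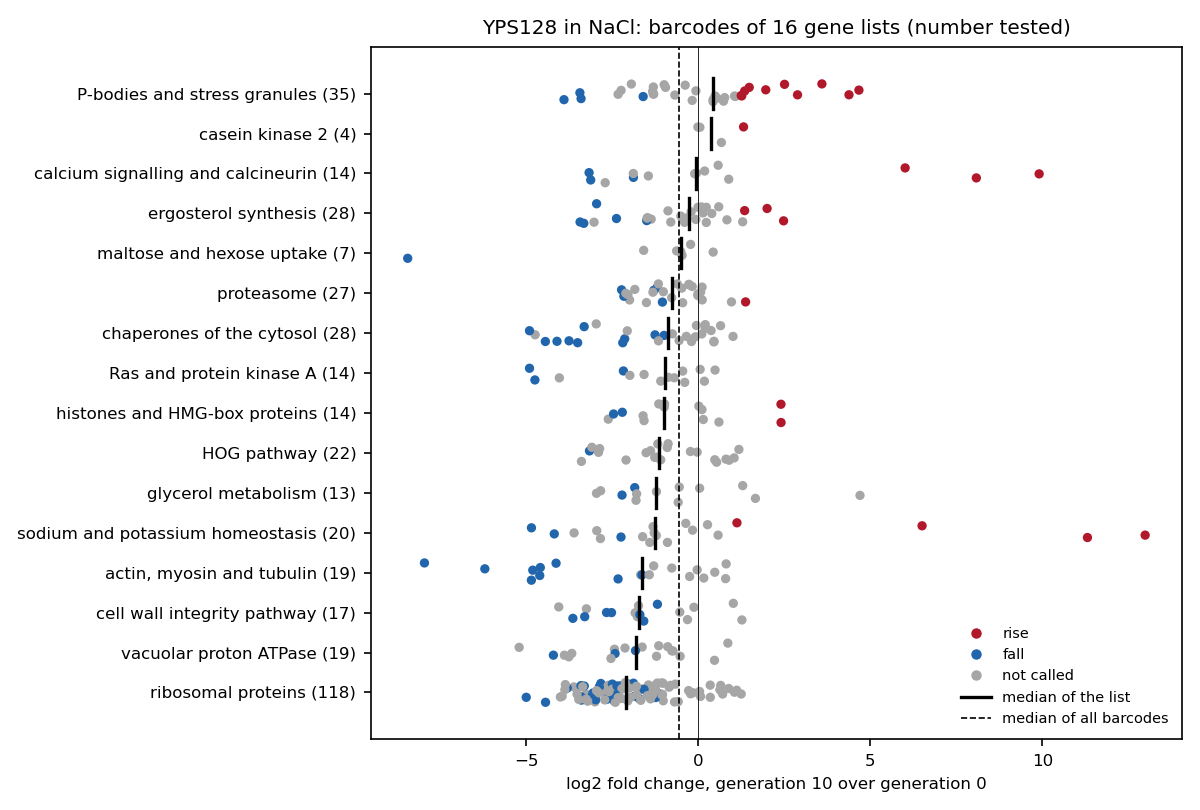
Log2 fold change (generation 10 over generation 0) of the barcodes of 16 gene lists in YPS128, with the number tested in brackets; red points rose, blue points fell, grey points were not called, black bars are list medians and the dashed line is the median of all barcodes at -0.56. P-bodies and stress granules have the highest median, ribosomal proteins the lowest, and the sodium and calcium lists hold the points farthest to the right.

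Of 22 tested HOG pathway barcodes, edgeR called 0 rises and 1 fall (4.11% and 8.47% over all barcodes), the polarity GTPase CDC42 (355, 348 and 299.8 to 33.4, 66.9 and 10.1, -3.16). At an unadjusted p under 0.05 there were 2 rises and 7 falls, DESeq2 called 5 rises and 3 falls, and without generation 10 replicate 2 edgeR called 3 and 13. Of 13 barcodes for glycerol metabolism, 0 rose and 2 fell: ASK10 (-1.85), a regulator of the glycerol channel, and GUP2 (-2.22), a membrane protein implicated in glycerol uptake. Here 2 rises and 3 falls had an unadjusted p under 0.05, and DESeq2 called 2 and 2. The other lists with no called rise were actin, myosin and tubulin, chaperones, Ras and protein kinase A, cell wall integrity, the vacuolar ATPase, maltose and hexose uptake and ribosomal proteins. At an unadjusted p under 0.05 they held 2, 1, 0, 2, 0, 0 and 4 rises, and DESeq2 called 2, 4, 1, 2, 2, 1 and 6.

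Some barcodes were high in 1 grown culture alone. A barcode was counted as such, by a rule set after the values were seen, when its highest generation 10 library held at least 100 normalised reads and at least 10 times the second highest. There were 54, of which 47 were in replicate 2 and 7 in replicate 3, and 16 and 3 of these also exceeded 10 times their starting level, while 13, all in replicate 2, lay below their starting level even there. They held 5.72% of the reads of replicate 2 and 6.28% of those of replicate 3. YBR137W, with a role in the delivery of tail-anchored proteins to the endoplasmic reticulum, had 538, 469 and 758364 normalised reads from 308, 418.4 and 403, and took 6.24% of replicate 3, more than CMK2. YER085C, a gene of unknown role, had 595, 228919 and 680.1 from 351, 515 and 564, or 3.78% of replicate 2. NUP53, a nucleoporin, had 298, 38344 and 615 from 312, 327 and 333. Outside the single high culture all 3 lay far nearer their starting levels. There YBR137W and YER085C were still above each of their generation 0 values, and NUP53 was below them at 298 and above them at 615. Their fitted log2 changes of 9.39, 7.33 and 5.34 carried SEs of 2.99, 2.36 and 1.75 and FDRs of 0.0727, 0.0741 and 0.0778, and none was called. Without the high culture the estimates were 0.42, 0.42 and 0.49. Further examples in replicate 2 were GCY1, a glycerol dehydrogenase (62.3, 9169 and 197), and the triose phosphate isomerase TPI1 (6.41, 4096 and 42.9), and in replicate 3 the cyclin CLB1 (5.95, 49.5 and 3223). Only 2 barcodes besides HAL5 made up 50% of the remaining reads in replicate 3, against 62 and 80 in replicates 1 and 2. The source of these differences between cultures was not tested.

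**Figure D4:**
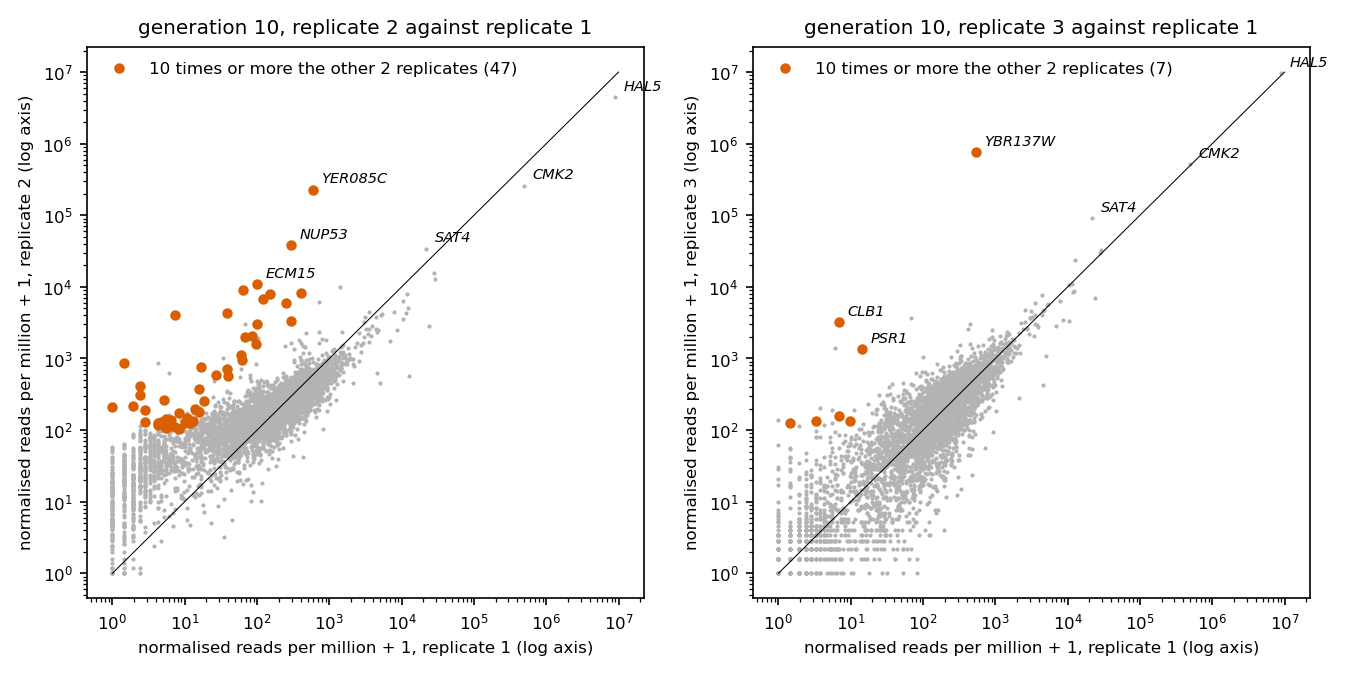
Normalised reads per 1000000 plus 1 (log axes) of the tested barcodes at generation 10, with replicate 2 (left) and replicate 3 (right) against replicate 1; orange points are the barcodes with at least 10 times the level of either other replicate, 47 and 7, and the line marks equal levels. Low barcodes lie above the line in replicate 2, and HAL5, CMK2 and SAT4 are high in all cultures.

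In 39 genes with a pair of barcodes both were tested. The log2 changes differed by a median of 0.55 and by 2.79 at most, with Pearson's r = 0.588 and Spearman's rho = 0.531 across genes, which share libraries and are not independent replicates. In 6 pairs edgeR called 1 barcode and in 0 pairs both, against 6 pairs with both at an unadjusted p under 0.05 and 2 with both called by DESeq2. Over all tested barcodes edgeR called 4.11% as rises and 8.47% as falls. With calls this rare, the lack of double calls does not measure how well paired barcodes match. The pairs with a call were MID2 (-2.52 called, -3.25 not), RPS16A (-2.50 and -2.24), KAR3 (-1.80 and -1.24), APE2 (-1.72 and -2.23), YBR062C (1.71 and 0.85) and TAD3 (1.57 and -0.05), the called barcode first.

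The changes in YPS128 were then set against those in BC187, which tolerates salt, and NCYC3290, which is sensitive like YPS128. A joint edgeR fit of the 24 libraries tested the difference of the log2 changes. Compared with BC187, 168 of 4215 barcodes differed, 96 higher in YPS128 (2.28%) and 72 lower (1.71%), or 148 higher and 33 lower with TMM factors. In a fit of the 12 libraries of these strains alone the balance turned, with 218 higher and 431 lower. Compared with NCYC3290, 1343 differed, 1181 higher (28%) and 162 lower (3.84%), with a median difference of 0.97. With TMM factors the split was 565 higher and 589 lower, and the median difference turned to -0.28. The spread differed greatly among strains, with coefficients of variation of 0.539 in YPS128, 0.110 in BC187, 0.855 in NCYC3290 and 0.126 in BY4743. BY4743 is known to carry more copies of the plasmid than the wild strains, and its values are given without a test of the difference.

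HAL5 rose in all strains, by 12.98 in YPS128, 12.88 in NCYC3290, 4.55 in BC187 and 1.09 in BY4743. The excess over BC187 was 8.44 (SE 0.70, FDR = 1.6e-07), and the difference from NCYC3290 was 0.11 (SE 0.61, FDR = 0.921). These SEs rest on 1 trend of the spread shared by all strains. In fits of a single strain the SE was 2.15 for HAL5 in YPS128 and 0.80 for SBP1 in NCYC3290. The FDRs of the differences in this paragraph may therefore be too small. SAT4 and CMK2 exceeded BC187 by 7.68 and 6.33 and were not called different from NCYC3290 (-2.15, FDR = 0.117, and 0.99, FDR = 0.162). ECM27 and CRZ1 differed between the 2 sensitive strains. ECM27 changed by -0.61 in NCYC3290 and 4.42 in BC187, so that YPS128 was higher by 8.67 (SE 0.61, FDR = 4.1e-09) and 3.66 (SE 0.54, FDR = 0.00027), and CRZ1 was higher than in NCYC3290 by 4.94 (SE 0.93, FDR = 0.0003). SIS2 went the other way, at 13.76 in NCYC3290, with a difference of -7.26 (SE 0.94, FDR = 4.4e-06). MEP3 and TOF2 rose in YPS128 more than in either strain, by 6.54 and 5.58 over BC187 and by 6.56 and 7.45 over NCYC3290. P-body gene SBP1 rose by 3.59 in YPS128 and fell by 3.96 in NCYC3290, a difference of 7.52 (SE 0.45, FDR = 3.2e-10).

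Some losses are given beside those in the other strains. MYO4 changed by -6.21 in YPS128, -6.21 in BY4743, -6.33 in BC187 and -2.24 in NCYC3290. The change in NCYC3290 was not called (FDR = 0.354), with 92.4, 0 and 1.07 normalised reads at generation 10, and YPS128 differed from it by -3.97 (FDR = 0.0461). MYO2 gave -4.81, -9.97, -7.23 and -5.83 in that order, and PMA1 -4.85, -3.66, -4.80 and -2.84, of which the last was not called (FDR = 0.172). PDE2 fell further in YPS128 than in BC187, with a difference of -4.35 (SE 0.84, FDR = 0.0036), and than in NCYC3290, with one of -3.24 (SE 0.83, FDR = 0.0046). The polyamine transporter TPO1 rose by 3.12 in BC187 and fell by 4.55 in YPS128, to 1, 11 and 1 reads. PTA1, of the mRNA cleavage and polyadenylation complex, ended at 0, 1 and 0 reads in YPS128, a pooled fall of 159.7-fold (28.6 to 6317), and changed by -0.25 in BC187. TPO1 and PTA1 fell in NCYC3290 too, with changes of -3.22 and -4.72. YPS128 was not called different from NCYC3290 for either (FDR = 0.442 and 0.178 in the joint edgeR fit).

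**Figure D5:**
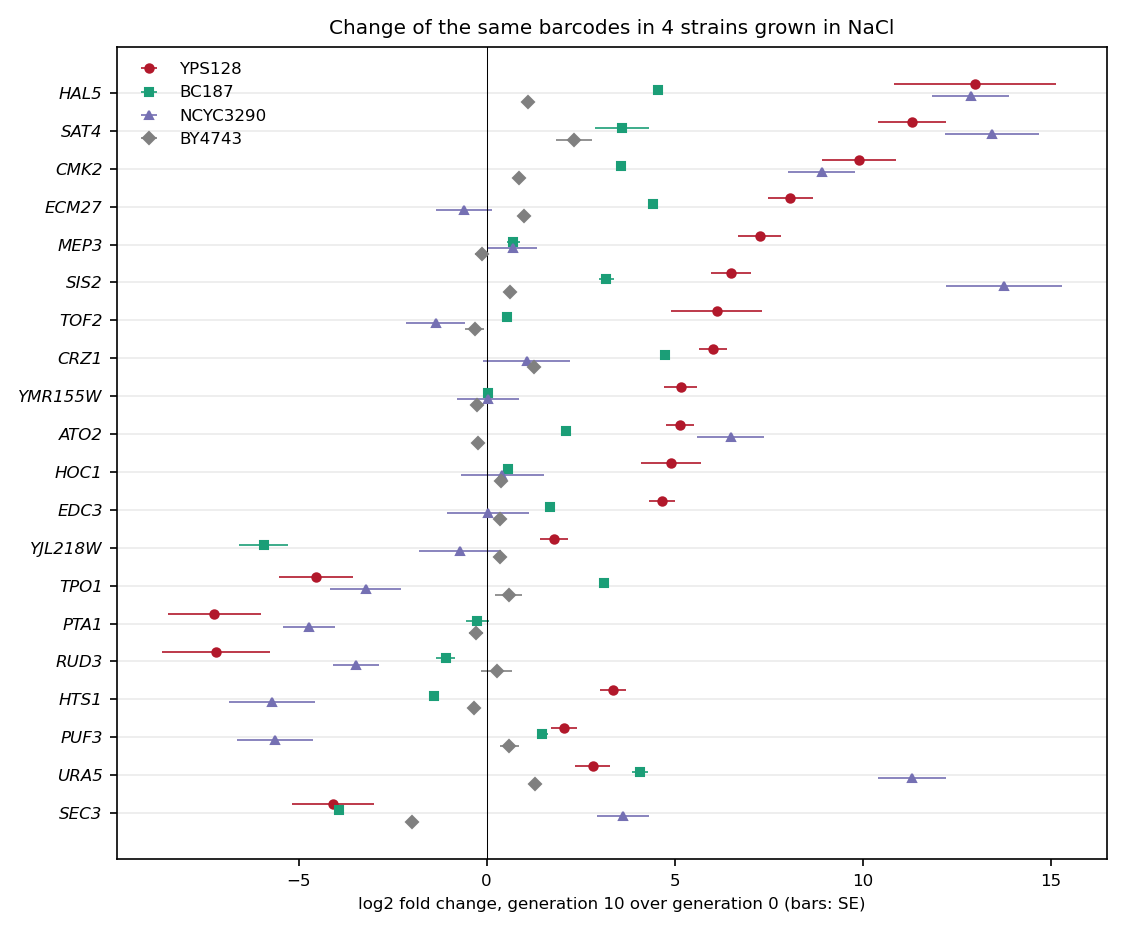
Log2 fold change (generation 10 over generation 0) with its standard error for the 12 largest rises of YPS128 and the genes that differ most from BC187 or NCYC3290, in YPS128 (red circles), BC187 (green squares), NCYC3290 (purple triangles) and BY4743 (grey diamonds). HAL5, SAT4 and CMK2 are high in YPS128 and NCYC3290, while ECM27, MEP3, TOF2 and CRZ1 stand out from NCYC3290 and SIS2 and URA5 lie far to its side.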

How the data were processed

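Plasmids were isolated from cell pellets, barcodes were amplified by PCR with indexed primers and sequenced, and the authors deposited raw read counts per barcode, with no normalisation. The tool that assigned reads to barcodes is not given in the sources used here, and no molecular identifiers were used. Columns were matched to samples by title. Gene names and positions came from the RefSeq annotation of build R64, which matched 4811 of 4817 genes; positions are those of the cloned gene in S288C. The gene lists, the rule for named genes and the comparisons were chosen with earlier results of these data known.

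Library size was summed over the genes that never passed 50000 reads; the other 25 genes were still tested. The 6 YPS128 libraries were fitted with edgeR 4.0.16 (R 4.3.3), glmQLFit and glmQLFTest, after filterByExpr with a minimum count of 10, and p-values were adjusted by Benjamini-Hochberg over 4157 barcodes at 0.05. The SE is the absolute log2 change over the square root of F. Differences between strains came from a joint fit of 24 libraries with 8 group means. Floored falls replace each library under 3 reads by 3; pooled falls carry exact (Clopper-Pearson) 95% counting intervals. Alternatives covered the scaling, the filter, DESeq2 1.42.0, limma 3.58.1 voom with generation weights, a replicate block, the study's rounding with imputation, and each library left out. The test was also run on counts simulated with 1 spread for all barcodes and both generations. The real spread was wider at generation 10, so that run gives no support to the calls.

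Genes were named if they were among the 12 largest rises, the 12 largest floored falls or the 10 largest shares at generation 10, if the study names them, if they were among the 3 largest differences in each direction from either strain, if they were among up to 4 called members of a list by FDR, or if they have several barcodes of which 1 was called. The other list members given with values, GLC7, SET3, SBP1 in the strain comparison and the single-culture examples were picked after their values were seen. Of the 12 largest falls, 1 is not reported here. Same-numbered libraries of the 2 generations did not vary together (correlations -0.08, -0.12 and 0.12), so replicate numbers were not used as pairs. No replicate was a copy of another: counts of replicates differed by 14 to 1010 times the sampling variance. The count table holds no coordinates or barcode sequences, and the read depth bears on counting error only.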

Additional observations from a re-analysis of the deposited data

Results flagged for a closer look

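Several barcodes changed differently in YPS128 than in another strain by the test of the difference itself, in the joint edgeR fit of 24 libraries with Benjamini-Hochberg adjustment, and the largest in each direction are given here. Against BC187, the change in YPS128 was higher by 8.44 for HAL5 (FDR = 1.6e-07), 7.68 for SAT4 (FDR = 0.00025) and 7.66 for YJL218W (FDR = 0.00053), a putative acetyltransferase that changed by -5.93 in BC187, where 0, 0.144 and 0.50 normalised reads were left, and 1.79 in YPS128. The change was lower in YPS128 with a difference of -7.60 for TPO1 (FDR = 2.3e-05), -7.00 for PTA1 (FDR = 2.3e-05) and -6.29 for RUD3 (FDR = 0.00088), a Golgi matrix gene left with 0, 0 and 1 reads in YPS128. In NCYC3290, TPO1, PTA1 and RUD3 fell as well, with changes of -3.22, -4.72 and -3.47. YPS128 differed from NCYC3290 for RUD3 (-3.87, FDR = 0.0339) but not for TPO1 or PTA1 (FDR = 0.442 and 0.178). PTA1 and RUD3 were at the floor of 3 reads in every grown YPS128 culture, so their fitted differences depend on the prior count; the pooled fall of RUD3 was 188-fold, with a 95% counting interval of 33.6 to 7429.8.

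Against NCYC3290, the change in YPS128 was higher by 9.01 for the histidyl-tRNA synthetase HTS1 (FDR = 1.1e-08), 8.67 for ECM27 (FDR = 4.1e-09) and 7.61 for PUF3 (FDR = 5.7e-08), an mRNA-binding protein. HTS1 reached 1446, 741 and 1569 normalised reads in YPS128 from 107, 131 and 127, and changed by -5.71 in NCYC3290. In NCYC3290, HTS1 was left with 6.76, 0 and 1.61 normalised reads and PUF3 with 3.76, 0 and 3.21, so that these differences, like that of YJL218W, also rest on a few reads. The change was lower in YPS128 with a difference of -8.50 for URA5 (FDR = 6.7e-09), of pyrimidine synthesis, -7.69 for the exocyst gene SEC3 (FDR = 3.1e-06) and -7.26 for SIS2 (FDR = 4.4e-06). URA5 rose in both strains, by 2.82 in YPS128 and 11.32 in NCYC3290, while SEC3 changed by -4.09 and 3.62. NCYC3290 has the widest spread between replicates of the strains and BC187 the narrowest, and the joint fit uses 1 trend of the spread for all. The FDRs of differences from either strain may therefore be too small. No cause of these differences was tested.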

How the results depend on the processing

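Counts of calls moved with the scaling and with single libraries. Rises numbered 16 with all reads in the library size, 433 with TMM and 696 with DESeq2, against 171. Falls numbered 3884, 199 and 557 in those settings, 756 with voom and 896 in the joint fit, against 352. The median log2 change was -3.64, 0.058 and 0.066 in the first 3 settings. Leaving out 1 library gave 40 to 375 rises and 2 to 1636 falls. The lowest counts came without generation 0 replicate 1 (40 rises, 2 falls), replicate 2 (45 and 10) or replicate 3 (48 and 15), and the highest without generation 10 replicate 2. Without generation 10 replicates 1 and 3 there were 130 and 169 rises and 240 and 367 falls. A replicate block gave 163 rises, of which 156 were shared, and 554 falls, of which 297 were shared; the numbers did not pair the samples. The count differing from BC187 was 649 with the 12 libraries of both strains alone and 47 with the replicate block, against 168, and that from NCYC3290 was 508 with its 12 libraries, against 1343.

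All 171 rises were also called with TMM, without generation 10 replicate 2 and by DESeq2, and of the 352 falls 196, 352 and 281 were. Signs of named genes turned in 1 setting only, all reads in the library size: CKA1 -1.90, GCD10 -0.23, QDR2 -2.04, DGK1 -0.36, YJL218W -1.44, PUF3 -1.19, URA5 -0.14, DHH1 -0.25, LSM4 -1.22, ERG5 -0.79, ERG4 -1.25, PUP2 -1.66, HTZ1 -0.79 and NHP6A -0.83. Of 79 named genes, 10 lost their call with TMM, 6 with the replicate block and 50 to 59 without 1 library of generation 0. The shallow remainder of the grown libraries limits what can be said of barcodes under 3 reads.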
